A study of Mus musculus with 2 samples.

Results

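In mouse hippocampus, 70 genes drew most of their transcript abundance in 1 of 2 quantifications from transcripts that the annotation types as retained intron. They were chosen from measured values: a mean of at least 20 TPM (transcript abundance per effective length, scaled to a fixed total) over both libraries, and at least 60% of the gene's TPM on retained-intron transcripts in each library. That made 70 of 55536 annotated genes, of which 6257 reached 20 TPM and 3965 of those had an annotated retained-intron transcript. Srsf, Tra2 and Clk genes were set aside, which removed 1 gene that met both thresholds, Srsf11. Only 22 of the 70 genes reached 60% in both libraries by this share, by counts and by the second quantification alike. The RNA, total RNA from a layer of hippocampus, came from B6CASTF1/J males (C57BL/6J crossed with CAST/EiJ) aged 8 to 10 months, with 1 library per animal. Replicate 1 was animal 2 and replicate 2 was animal 4, and 300 ng of RNA entered each ribosomal-RNA-reduced, strand-keeping library. Both animals carry the same donor entry and form 1 group, so the data allow no comparison of conditions, and a difference between the libraries is one between these animals and their dissections.

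An intron is retained when it stays in a transcript that is otherwise spliced. Such RNA is often held in the nucleus or, once exported, degraded by nonsense-mediated decay, because the intron usually brings a stop codon into the reading frame. Genes for splicing factors are well known for detained introns, and total RNA, unlike polyadenylated RNA, also carries unprocessed nuclear transcripts. The annotation type is broad: GENCODE gives it to transcript models that hold intronic sequence relative to coding models of the gene, including short models that begin or end inside an intron.

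The layout of the leading model differed from that picture in most of the 70 genes. The leading model is the retained-intron transcript with the highest mean TPM. It held a whole intron of a coding transcript in 19 of the 70 genes (27.1%), began inside an intron in 44 (62.9%), ended inside one in 3 (4.3%), had only internal intron bases in 3, and had no intron base in 1, Fam135b. Among 3881 other genes of 20 TPM or more with a retained-intron transcript, the shares were 27.5% for a whole intron, 28.2% for a start inside an intron and 42.9% for an end inside one. Each model was put in 1 class only: whole intron first, then an end inside an intron, then a start inside one. An end was not counted beside a whole intron, nor a start beside either. No test was made of these shares. They rest on 1 model per gene, which held under 50% of the gene's TPM in both libraries in 37 of the 70 genes. The second transcript table, made by another quantification of the same reads, gave that model 0 TPM in both libraries in 3 genes, Rps18, Mtx1 and Riok3.

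**Figure D1:**
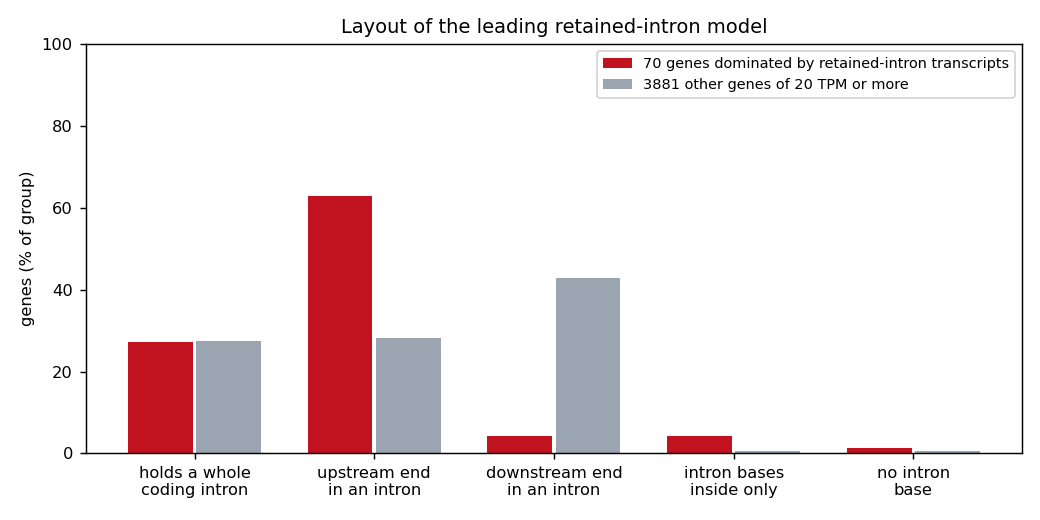
Share of genes (%) by layout of the leading retained-intron model, for the 70 genes (red) and 3881 other genes of 20 TPM or more (grey). A start inside an intron, with no whole intron held and no end inside one, was found for 62.9% of the 70 genes and 28.2% of the others.

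The first set of sequences shows models that begin inside an intron, for 4 abundant genes with a short stretch beside coding bases. Capitals mark the intron bases held by the model and lower case the first 15 bases of the following exon, all on the transcribed strand, from GENCODE M21 transcripts on mm10.
Uchl1-202, intron bases at chr5:66676892-66676943, plus strand: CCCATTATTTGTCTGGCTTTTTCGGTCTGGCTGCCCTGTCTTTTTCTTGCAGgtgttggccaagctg
Rps16-203, intron bases at chr7:28350924-28350991, plus strand: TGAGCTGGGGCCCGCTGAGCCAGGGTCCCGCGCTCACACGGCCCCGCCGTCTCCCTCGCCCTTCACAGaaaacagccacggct
Uqcrh-205, intron bases at chr4:116070025-116070078, minus strand: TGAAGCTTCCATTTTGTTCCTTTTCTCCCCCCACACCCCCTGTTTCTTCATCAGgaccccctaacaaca
Grcc10-203, intron bases at chr6:124740696-124740715, minus strand: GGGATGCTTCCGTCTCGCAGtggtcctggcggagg
Each stretch runs into the exon through AG, the letters at the downstream end of most introns. The same held for all 44 models that begin inside an intron. It follows from the annotation, because each stretch was cut where an exon of a coding transcript begins. The stretches of the 44 models had a median of 76 bases, from 5 to 471, and 31 of the 44 were 100 bases or shorter.

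The second set shows whole introns kept between exons of the model, for 3 genes with a short intron flanked by 15 coding bases on each side. Capitals mark the intron and lower case 15 exon bases on each side.
Prelid1-202, intron at chr13:55324445-55324526, plus strand: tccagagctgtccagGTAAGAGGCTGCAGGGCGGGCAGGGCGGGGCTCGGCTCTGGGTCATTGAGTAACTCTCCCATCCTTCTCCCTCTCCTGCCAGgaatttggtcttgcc
Ncl-202, intron at chr1:86352320-86352509, minus strand: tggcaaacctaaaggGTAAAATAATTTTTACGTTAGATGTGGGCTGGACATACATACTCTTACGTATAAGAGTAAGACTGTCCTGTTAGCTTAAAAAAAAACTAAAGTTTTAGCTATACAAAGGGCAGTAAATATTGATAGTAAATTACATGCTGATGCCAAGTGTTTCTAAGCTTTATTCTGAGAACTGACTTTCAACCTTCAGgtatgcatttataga
Aup1-205, intron at chr6:83056879-83056977, plus strand: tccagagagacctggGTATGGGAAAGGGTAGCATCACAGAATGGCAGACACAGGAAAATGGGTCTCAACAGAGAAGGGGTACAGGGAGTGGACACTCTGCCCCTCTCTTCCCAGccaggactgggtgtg
Picked for being short, these introns had 82 bases in Prelid1, 190 in Ncl and 99 in Aup1. Ncl-202 also holds another whole intron, of 492 bases. Over all retained-intron models of the 70 genes, 135 whole introns in 45 genes had a median length of 140 bases, from 53 to 3055, against 273 bases for 4230 such introns in the other genes. All coding introns of the genes had medians of 602.5 and 1396 bases in the 70 genes and in the others. All 135 introns began with GT and ended with AG, as did 97.8% in the other genes. An in-frame stop codon lay in 112 of the 131 introns between coding bases (85.5%), against 88.9% in the other genes.

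Most of the leading model was exon sequence in most of the 70 genes. The median share of its bases that lay in exons of coding transcripts was 85.8%, from 17.4% in Spaca6-213 to 100%, against 59.4% in the other genes. The median number of intron bases was 92.5, against 347. At least 80% exon was found in 49 of the 70 genes (70%) and in 24.1% of the others. An intron of 1 coding transcript can be exon of another, as in Gfra4-208, which holds a whole coding intron yet is 100% exon by this measure. The leading retained-intron model was shorter than the leading other transcript in 60 of 70 genes (85.7%), with medians of 692 and 1628.5 bases, and in 80.8% of the other genes, with medians of 881 and 2994 bases.

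**Figure D2:**
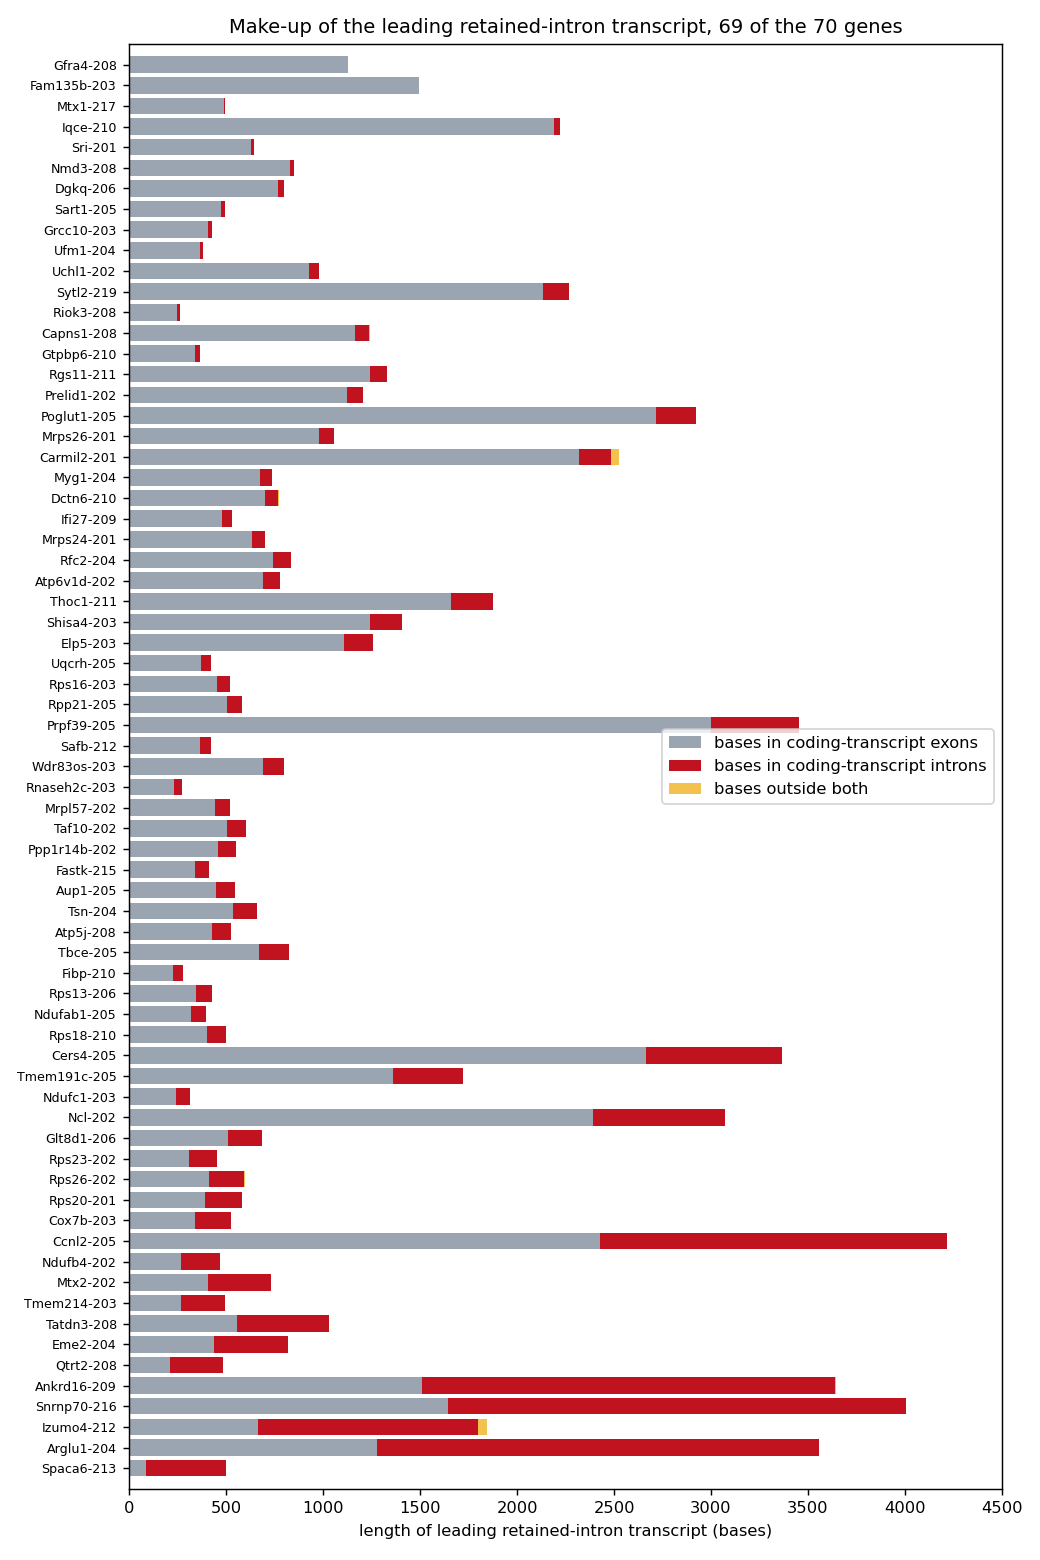
Length in bases of the leading retained-intron model of 69 of the 70 genes, divided into bases in coding-transcript exons (grey), in introns only (red) and outside both (yellow). Most bars are mainly grey, with Spaca6-213, at 17.4% exon, at the bottom.

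The drawn models of Uchl1, Rps16 and Uqcrh show a first exon that reaches a short way into the intron, with the other splice junctions shared with the coding model. Those of Prelid1, Ncl and Arglu1 show exons that the coding model divides joined into 1. In Uchl1, only 52 of the 980 bases of Uchl1-202 were intronic. In Arglu1, 2280 of the 3559 bases of Arglu1-204 were intronic.

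**Figure D3:**
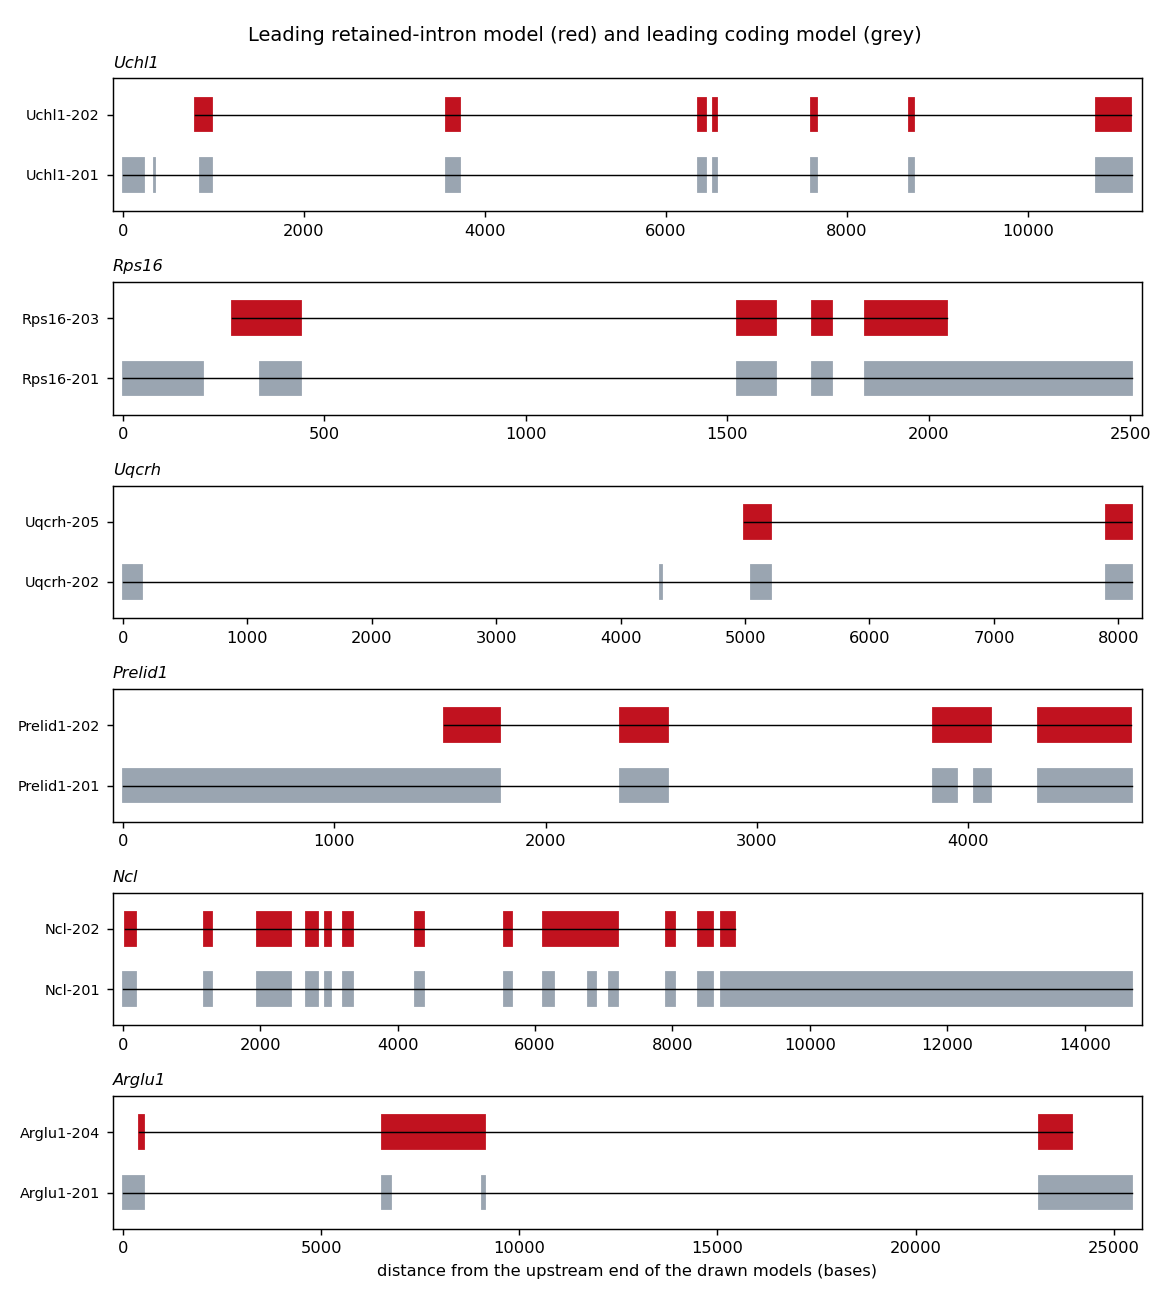
Exons (boxes) and introns (lines) of the leading retained-intron model (red) above the leading coding model (grey) for 6 genes, by distance in bases from the upstream end of the drawn models. Uchl1, Rps16 and Uqcrh begin inside an intron, and Prelid1, Ncl and Arglu1 span an intron of the coding model.

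The libraries held 23458117 expected counts in replicate 1 and 29584307 in replicate 2, and counts per member gene lay between 154 and 7322. Retained-intron transcripts took 4.383% of expected counts in replicate 1 and 3.014% in replicate 2. Summed TPM of 11 nuclear long noncoding RNAs was 25961.8 in replicate 1 and 19931.2 in replicate 2. All 10 hippocampal neuron markers reached 20 TPM in the mean, with sums of 1198.5 and 1203.5 TPM in replicates 1 and 2. Summed TPM of 9 choroid plexus markers was 17.9 in replicate 1 and 1791.5 in replicate 2, with the lowest marker at 0.21 and 3.5 TPM, and 10 glial and vessel markers summed to 2462.2 and 2389.7 TPM. The part of these differences in any result below was not tested.

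The retained-intron share of TPM, which chose the genes, had a median of 71.84% over the 70 genes, from 60.28% to 99.96%, against 10.2% over the 3965 genes. Only 16 genes had a share of 80% or more in both libraries. At the threshold, Fam135b (60.12% in replicate 1 and 60.45% in replicate 2), Aup1, Capns1, Rpp21 and Iqce lay just inside. Tia1 (69.94% and 59.2%), Ctsb (59.5% and 58.95%), Anks3, Clasrp and Zc3h7a lay just outside. By level, Mtx2 at 21.17 TPM, Rpp21, Qtrt2, Tatdn3 and Prpf39 lay just inside, and Crtc2 at 19.68 TPM, Ptges2, Mrps25, Gm43305 and Irf3 just outside.

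Other ways of taking the share gave lower medians in these genes, which the share of TPM had chosen. By expected counts, which are not divided by transcript length, the median was 62.22%, from 11.72% to 99.93%, and the share was lower than by TPM in 62 of 70 genes. Counts put 31 of the 70 genes at 60% or more in both libraries and 14 under 50% in both. Ufm1, a ubiquitin-like modifier, had a TPM share of 67.07% in replicate 1 and 66.42% in replicate 2 but a count share of 11.72% and 11.71%; its leading model, Ufm1-204, is 381 bases long. In the second transcript table, the median was 67.69%, from 0.11% to 99.95%, with 45 genes at 60% or more in both libraries and 8 under 50% in both. Over the 3965 genes, not chosen by share, the medians were 10.2% by TPM, 5.09% by counts and 10.86% in the second table. All 3 measures put 22 of the 70 genes at 60% or more in both libraries.

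**Figure D4:**
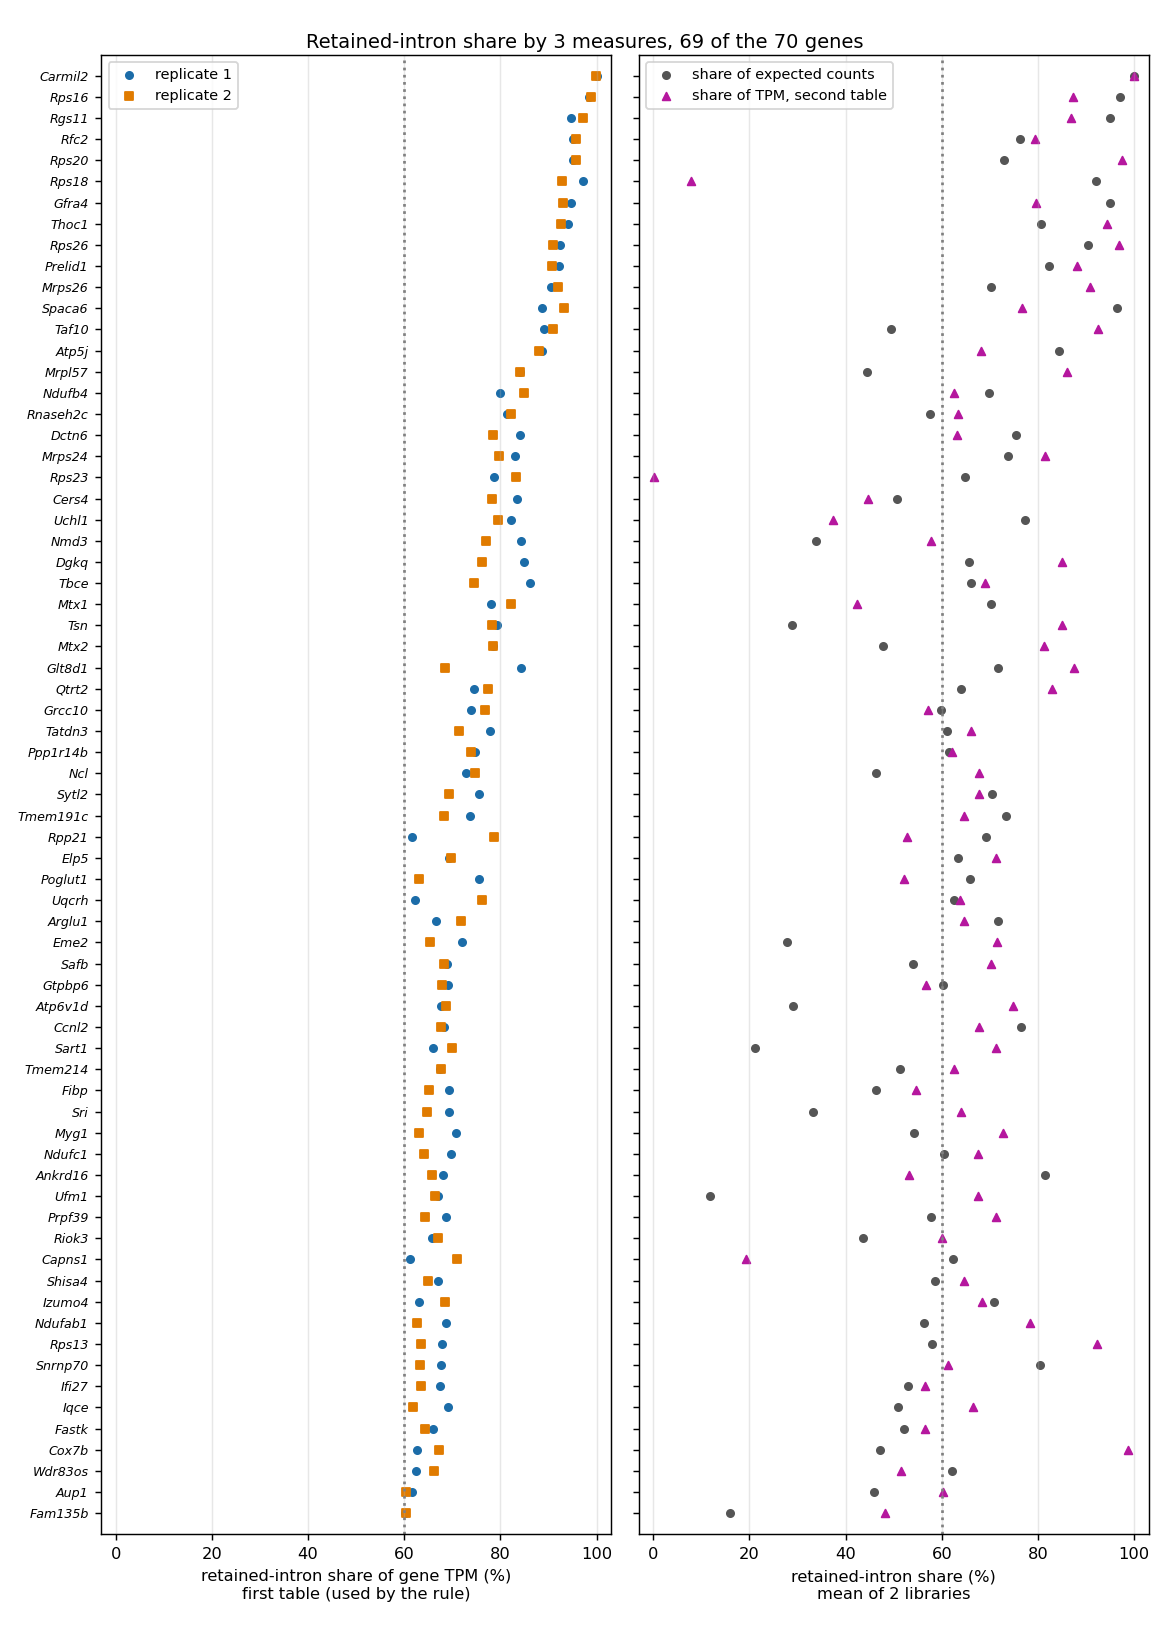
Retained-intron share (%) of 69 of the 70 genes, ordered by mean share of TPM. The left panel shows each library by the measure the rule used, all at 60 or more; the right panel shows the mean share of expected counts and of TPM in the second table, which reach down to 11.72 and 0.11.

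The quantifications disagreed most on 5 genes. Rps18 had a share of 97.12% in replicate 1 and 92.88% in replicate 2 in the first table, against 9.12% and 6.64% in the second. Rps23 had 78.69% and 83.28% in the first table, against 0% and 0.23% in the second, and its gene level also differed, at 66.26 and 90.17 TPM against 250.21 and 261.01 TPM. Capns1, the calpain small subunit, had 61.29% and 70.91% in the first table, against 16.18% and 22.22% in the second. Uchl1 had 82.19% and 79.43% in the first table, against 38.14% and 36.51% in the second. Mtx1 had 78.12% and 82.13% in the first table, against 40.54% and 44.37% in the second. These 5 were among the 8 genes under 50% in the second table in both libraries. Also among the 8 were Cers4 (mean of 80.84% against 44.76%) and Fam135b (60.28% against 48.15%). For these 8 genes the data do not settle whether retained-intron transcripts made up most of the gene. Nor do they settle it for the 14 members under 50% by expected counts in both libraries, which overlap with the 8 and include Ufm1. Only 22 members reached 60% in both libraries by all 3 measures. In replicate 2, Rpp21 had 78.72% in the first table and 32.96% in the second. The difference went the other way in Cox7b, whose mean share was 64.88% in the first table and 98.82% in the second.

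Cytosolic ribosomal proteins, subunits of the translating ribosome, gave 7 of the 70 genes. Among them were Rps16, Rps20, Rps18, Rps13, Rps26 and Rps23. Grouped by symbol after the members were known, they were 7 of 84 such genes of 20 TPM or more. The median share was 3.33% over the 66 of these 84 genes with an annotated retained-intron transcript. Rps16 had 260.95 TPM in replicate 1 and 273.53 TPM in replicate 2, with retained-intron shares of 98.41% and 98.88%. Rps20 had 149.24 and 163.76 TPM in replicates 1 and 2, with shares of 95.19% and 95.68%. In 6 of the 7 the leading model began inside an intron. Ribosomal protein genes have many processed pseudogenes whose reads may be divided with the parent gene, so these values are uncertain.

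The mitochondrial groups formed here gave 13 more genes, a count that leaves out any gene filed under another role. The mitochondrial ribosome was represented by Mrps26, Mrps24 and Mrpl57, with mean shares of 91.18%, 81.31% and 84.14%. Respiratory chain and ATP synthase subunits were Uqcrh, Cox7b, Atp5j, Ndufc1, Ndufab1 and Ndufb4, which were 6 of 81 such genes of 20 TPM or more. Uqcrh, a complex III subunit, had 201.05 TPM in replicate 1 and 203.41 TPM in replicate 2, with shares of 62.27% and 76.11%. Atp5j, a subunit of ATP synthase, had 154.07 and 152.04 TPM, with shares of 88.62% and 87.94%. All 6 had a leading model that began inside an intron. Mtx1 and Mtx2, outer membrane metaxins, Prelid1, a lipid transfer protein, and Fastk completed the set. Prelid1 had 67.72 TPM in replicate 1 and 81.77 TPM in replicate 2, and Prelid1-202, its only retained-intron transcript, took 92.21% and 90.64%.

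Splicing and nuclear RNA proteins gave 8 genes. Snrnp70, the U1 snRNP protein, had 247.59 TPM in replicate 1 and 160.55 TPM in replicate 2, with shares of 67.7% and 63.25%. Arglu1, a splicing and transcription cofactor, had 49.48 and 40.56 TPM, with shares of 66.5% and 71.87%. Its single retained-intron transcript carried all of that share. Ccnl2, a cyclin linked to splicing, had 50.94 and 29.88 TPM, with shares of 68.31% and 67.69%. Prpf39, another U1 snRNP factor, had 27.67 and 17.42 TPM, with shares of 68.62% and 64.35%. Thoc1, of the THO complex in mRNA export, had 31.64 and 27.37 TPM, with shares of 93.96% and 92.64%. Ncl, nucleolin, had 68.25 and 67.73 TPM, with shares of 72.75% and 74.73%. Sart1, of the tri-snRNP, and Safb, a nuclear matrix protein, had mean shares of 67.92% and 68.6%.

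In lists of known groups, 4 of 80 spliceosome and splicing genes of 20 TPM or more were among the 70. The median share was 24.51% over the 71 of these with an annotated retained-intron transcript, against 10.2% over all 3965 genes with one. Of 35 genes listed for known detained introns, 3 were members (Snrnp70, Ccnl2 and Arglu1), with a median share of 28.98% over the 30 that have an annotated retained-intron transcript. Of 16 nuclear RNA decay and export genes, 1 was a member, Thoc1, and of 33 snoRNA host genes, 2 were, among them Ncl. None of 30 hnRNP and FET genes and none of 12 nonsense-mediated decay factors was a member, but only 21 and 7 of these had an annotated retained-intron transcript. Over all genes of 20 TPM or more the share of members was 1.12%, and only the 3965 with an annotated retained-intron transcript could be members. No snoRNA or other small RNA gene lay in the leading model of any of the 70 genes, but this was rare elsewhere too, at 33 of the 3881 other genes. Small RNA genes lay in less abundant retained-intron models of several members, among them Rps20, Gfra4, Ncl and Rps13. In Fastk the model that holds one was at 0 TPM in both libraries.

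The remaining genes served varied functions. Uchl1, a neuronal deubiquitinating enzyme, was the most abundant, with 408.08 TPM in replicate 1 and 420.54 TPM in replicate 2. Uchl1-202 alone had 323.8 and 329.59 TPM, against 72.71 and 86.51 TPM for the coding transcript Uchl1-201. The second table gave Uchl1-202 130.16 and 133.84 TPM, of 361.4 and 375.59 TPM for the gene. Beside it, Ufm1, Aup1, Wdr83os, the tubulin cofactor Tbce and the dynactin subunit Dctn6 had mean shares of 60.96% to 81.31%. Atp6v1d, a subunit of the vacuolar proton pump, had 118.98 and 131.5 TPM, with shares of 67.55% and 68.68%. Rgs11, a regulator of G protein signalling, had 30.41 and 21.21 TPM, with shares of 94.74% and 97.25%. Gfra4, a GDNF family receptor, had 27.94 and 30.2 TPM, with shares of 94.62% and 93.05%.

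Other enzymes, signalling and vesicle genes were Poglut1, Glt8d1, the ceramide synthase Cers4, the diacylglycerol kinase Dgkq, Capns1, sorcin (Sri), the phosphatase inhibitor Ppp1r14b, Shisa4 and Sytl2. Genes of RNA, DNA and transcription outside splicing were Rpp21, Qtrt2, Elp5, Rnaseh2c, Nmd3, Riok3, Taf10, Tsn, Rfc2, Eme2, Tatdn3, Gtpbp6 and Myg1. Of these, the clamp loader subunit Rfc2 had the highest share, at 95.1% in replicate 1 and 95.8% in replicate 2. Fibp, Ifi27, Tmem214, Tmem191c, Fam135b, Iqce, Ankrd16, Grcc10, Izumo4, Spaca6 and Carmil2 completed the 70. Carmil2, an actin regulator, had the highest share of all, at 100% and 99.91%. The leading model shared exon sequence with another gene on the same strand in Eme2, Grcc10 and Tmem191c, so reads of these 3 genes may be divided with a neighbour.

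At the gene level, 1 of the 70 genes differed between the animals: Spaca6, a sperm acrosome gene, was higher in replicate 1. It had 64.97 TPM in replicate 1 and 34.69 TPM in replicate 2. Its expected counts were 1108 and 722, a log2 ratio of replicate 1 over replicate 2 of 0.93 (adjusted p = 0.0129, edgeR deviance test), and its adjusted p lay between 0.0103 and 0.158 over the alternatives. It no longer passed with spike-in scaling (0.0781) or in the second table (0.158). Among all 16123 genes tested, 0.806% passed, made up of 0.434% higher and 0.372% lower in replicate 1. In bulk tissue, a change in the number of cells of a type and in RNA per cell cannot be told apart. The p-values compare these 2 libraries, with the spread taken from genes of like level. At an unadjusted p under 0.05, edgeR gave 10 of the 70 genes, against 4.83% of all 16123, which include genes of lower level.

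All 70 genes lay within 2-fold, with log2 ratios from -0.54 in Sytl2 to 0.93 in Spaca6. So did 93.2% of all genes tested, which were not matched for level and needed only 1 CPM in 1 library. Beside Spaca6, the highest ratios were those of Ccnl2 (0.64), Tatdn3 (0.59), Iqce (0.58) and Prpf39 (0.51). Beside Sytl2, the lowest were those of Rps23 (-0.52), Rps26 (-0.44), Shisa4 (-0.43) and Prelid1 (-0.42). None of these 8 passed the adjusted threshold in edgeR. The ratio was above 0 in 28 of the 70 genes, against 50.2% of all genes tested. By groups formed after the members were known, it was above 0 in 7 of the 8 splicing and nuclear RNA genes. It was below 0 in all 7 cytosolic ribosomal, all 3 mitochondrial ribosomal and all 6 respiratory chain genes. Summed TPM of all cytosolic ribosomal genes, members or not, was 17548 in replicate 1 and 18623.8 in replicate 2. For respiratory chain genes it was 11829.6 and 12294.9, and for spliceosome and splicing genes 6264.6 and 5130.7. These whole families thus went the same way as their members. Mitochondrial ribosomal genes as a whole did not, at 2142.5 and 2092.1. No test of these groups was made. Spike-in scaling moved the median of all genes to 0.23, so ratios less than 0.23 below 0 change sign under it. That covers all 6 respiratory chain genes (-0.15 to -0.01) and the median of the cytosolic ribosomal genes (-0.19).

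Each gene was also divided into its retained-intron part and the rest. No part of the 70 genes passed the edgeR test among 139 parts tested (5 at an unadjusted p under 0.05, against 4.78% of all parts). Of the 139, 137 lay within 2-fold, as did 88.9% of all parts. In simulated libraries the part test recovered 0.7% of 2-fold differences. Among all 21375 parts 0.725% passed, made up of 0.412% higher and 0.313% lower in replicate 1, or 1.15% of all 5409 retained-intron parts and 0.582% of all 15966 other parts. The median log2 ratio of replicate 1 over replicate 2 was -0.11 for the retained-intron parts of the 70 genes, against 0.58 for all retained-intron parts, and 0.17 against 0.85 with spike-in scaling, under which the first changes sign. For the other parts it was -0.15 in the 70 genes, against -0.08 for all, and 0.13 against 0.20 with spike-in scaling, under which both change sign. The retained-intron part was above 0 in 29 of the 70 genes, against 83.3% of all retained-intron parts. Likewise the share of TPM was higher in replicate 1 in 42 of the 70 genes (60%), against 82.67% of the 3965 genes. The rule asked for a high share in both libraries, so it bears on these shares, and no test of the difference was made.

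By layout, without spike-in scaling, the median ratio of the retained-intron part was -0.12 in the 19 genes whose leading model held a whole coding intron and -0.14 in the 44 whose model began inside one. In the other genes these medians were 0.58 and 0.47. It was -0.13 in the 49 genes with a leading model of at least 80% exon and 0.23 in the other 21. In the other genes these were 0.34 and 0.65. In Uchl1, retained-intron counts were 4071 in replicate 1 and 5550 in replicate 2, a log2 ratio of -0.18. Ccnl2 had 1629 and 1261 retained-intron counts, a log2 ratio of 0.63, with an unadjusted p of 0.0115 and an adjusted p of 0.556 in edgeR.

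**Figure D5:**
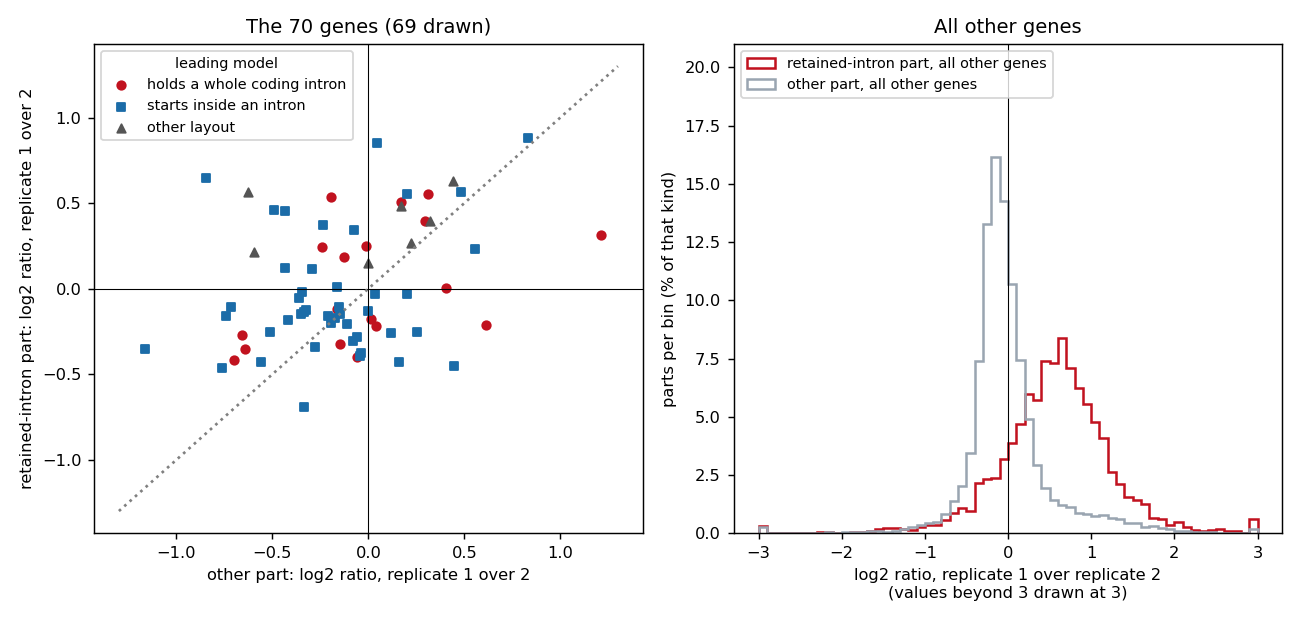
Log2 ratio of replicate 1 over replicate 2. Left, the retained-intron part against the other part for 69 of the 70 genes, with symbols for the layout of the leading model (Carmil2, whose other part was too low to test, is not drawn); right, all other genes, as percent of each kind of part per bin. The median was 0.58 over all retained-intron parts, with the 70 genes included, and -0.11 over those of the 70 genes.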

How the data were processed

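The authors deposited, per library, expected counts and TPM per gene, and 2 transcript tables on mm10 with GENCODE M21, per the labels and file headers. Program names: not given in the sources used here. Deposited expected counts divide shared reads among features and are unscaled; deposited TPM is per effective length; the deposited percent values divide a gene's TPM among its transcripts. The second table's deposited estimated counts and TPM were summed per gene.

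Members and lists were chosen with earlier results of these data known. Transcript types came from the second table, and layout and sequence from the GENCODE M21 models. Expected counts were rounded to whole numbers and tested with edgeR 4.0.16 (R 4.3.3): 1 group, TMM, CPM of 1 or more in at least 1 library, trended dispersion, residual deviance against chi-square with 1 degree of freedom, Benjamini-Hochberg over all features, threshold 0.05. A quasi-likelihood test needs a contrast, which 1 group does not give. Log2 ratios used a prior count of 2. The test was checked on simulated counts. DESeq2 1.42.0 size factors were an alternative. Named genes were the 15 most abundant members, the 8 highest and 8 lowest shares, members of lists, called genes, and the 5 most extreme by ratio, quantifier and threshold. Intervals from these tables carry no spread between animals, and with 2 animals p-values may be technical. Of the 70 genes, 1 is not reported here by name; it is counted in the summaries.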

Additional observations from a re-analysis of the deposited data

How the results depend on the processing

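The number of genes depended on the thresholds: it was 70 with 20 TPM and 60%, 108 with 10 TPM, 191 with 1 TPM, 31 with 50 TPM, 146 with a share of 50%, 33 with 70% and 16 with 80%. With the share taken from expected counts it was 39, of which 31 were among the 70. The second table gave 70 genes, of which 45 were the same (64.3% of each set). Posterior mean TPM, an alternative chosen after seeing the data, gave 67, of which 66 were the same. With the rule applied to 1 library, the number was 75 without replicate 1 and 132 without replicate 2. The median share was 62.22% by counts and 67.69% in the second table, against 71.84%, and 72.82% and 73.84% without replicates 1 and 2. The number of the 70 genes called between the libraries was 1, but 0 with spike-in scaling and 0 in the second table; without either replicate no test remains. Over all genes calls ranged from 94 to 130 and over all parts from 106 to 155, and no part of the 70 genes was called under any of the 4 alternatives. No paired analysis was possible because the labels give 1 group. In simulated libraries of the gene comparison (15663 genes), edgeR recovered 4% of 2-fold and 85.3% of 4-fold differences. In those of the part comparison (20505 parts), it recovered 0.7% and 62.7%. Smaller differences between the animals were therefore mostly not detectable. Of the 139 parts of the 70 genes, 137 lay within 2-fold, as did 88.9% of all parts.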
